A study of Homo sapiens with 8 samples.

Results

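A set of 10 genes of the mTORC1 pathway was followed through 8 poly(A) RNA libraries of 2 human osteosarcoma lines, 143B and HOS. They are DDIT4, SESN1, SESN2, TSC1, TSC2, RHEB, MTOR, EIF4EBP1, EIF4EBP2 and EIF4EBP3, 10 of the 13703 genes listed in at least 1 of the deposited tables. The set was chosen by pathway role and by FPKM values of these libraries: DDIT4 and EIF4EBP3 were among the strongest changes between sgNAT10 and NC in 143B. Every 143B value of the 10 genes (called members from here on) is therefore a description and carries no p. Of the 10, 9 are listed in the 143B table of 12700 genes (SESN1 is not) and all 10 in the HOS table of 12810 genes. Each line was sequenced as 2 libraries labelled sgNAT10, from cells that the submitters call NAT10 knockout cells, and 2 libraries of control cells labelled NC. The labels give no other agent, no guide sequence and no statement of whether a group's 2 libraries come from separate cultures or clones, and p-values thus cover library-to-library spread alone, which may be technical. NAT10 is the enzyme that acetylates cytidine in RNA. Both are established lines, 143B having been made from HOS by oncogenic transformation.

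mTORC1 is the kinase complex that links nutrients and growth factors to protein synthesis. MTOR is its catalytic subunit and RHEB the small GTPase that switches it on at the lysosome. TSC1 and TSC2 form the complex that turns RHEB off, DDIT4 (also called REDD1) acts through that complex under stress, and the sestrins SESN1 and SESN2 hold the amino acid branch in check. The 4E-binding proteins EIF4EBP1, EIF4EBP2 and EIF4EBP3 are downstream: unphosphorylated, they bind the cap-binding factor eIF4E and hold back translation, and mTORC1 phosphorylates them to release it. DDIT4, SESN2 and EIF4EBP1 are known stress-induced genes in many cell types. These activities lie in the proteins and their phosphorylation, which RNA levels do not measure.

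Levels are FPKM (fragments per kilobase of transcript, scaled to library size), a unit meant to let genes of different length be set side by side. A length effect between libraries remained. The replicate 2 minus replicate 1 difference had a rank correlation with transcript length of 0.358 in 143B NC and -0.297 in HOS NC. In sgNAT10 it was 0.0887 in 143B and -0.176 in HOS. Shares and ratios of genes below use FPKM without correction for this. Read depth is unknown. Sums of listed FPKM ranged from 484793 to 798137 over the 8 libraries, and libraries of a group correlated at 0.979 to 0.986 in 143B and 0.995 to 0.997 in HOS. NAT10 itself had 9.05 and 7.19 FPKM in 143B sgNAT10 and 16.06 and 19.95 FPKM in 143B NC. In HOS it had 21.13 and 19.14 FPKM in the libraries labelled sgNAT10 and 14.86 and 16.22 FPKM in NC. NAT10 RNA as deposited was therefore higher, not lower, in the HOS libraries labelled sgNAT10 (log2 0.353, and -0.0474 after length and GC correction). NAT10 protein and edits of the gene were not measured here, so the RNA level does not settle whether the label holds in either line. Each HOS direction is drawn between libraries as labelled. Of the osteoblast and mesenchymal markers, 5 of 6 were listed in 143B and 6 of 6 in HOS, with VIM at 481.52 FPKM or more in every library. In 143B, COL1A2 is not listed and RUNX2 lay at 0.37 to 1.0 FPKM. No blood marker of 3 was listed in either table, and of 3 endothelial markers 0 were listed in 143B and 2 in HOS, at 0.44 to 1.4 FPKM. The keratins KRT8 and KRT18 and EPCAM were listed in both lines, at 0.87 to 4491.69 FPKM over all libraries. Summed FPKM of the osteoblast and mesenchymal markers was 501 and 790 in 143B sgNAT10 and 1390 and 1810 in 143B NC, and 1790 and 1730 in the HOS libraries labelled sgNAT10 and 1380 and 1580 in HOS NC. The epithelial sum was 4990 and 3760 in 143B sgNAT10 and 3420 and 2300 in 143B NC, and 944 and 953 in the HOS libraries labelled sgNAT10 and 670 and 773 in HOS NC. These sums thus moved with the labels, the mesenchymal one in the direction of DDIT4 in each line. In 143B, VIM and KRT18 made up most of them, at 1339.3 and 3035.62 FPKM in NC replicate 1. Single markers did not all follow: COL1A1, ALPL and KRT8 overlapped between groups in HOS, and RUNX2 and KRT8 in 143B. The other listed markers of both lists moved with their sums without overlap. The part of these markers in the members' changes was not tested.

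DDIT4 went opposite ways in the 2 lines. In 143B it had 1.65 and 1.3 FPKM in sgNAT10 and 58.76 and 51.5 FPKM in NC. The sgNAT10 libraries lay far below NC, a 37.4-fold lower mean. The log2 change of log2(FPKM + 1) was -4.50 (SE 0.307), against a median of -0.25 over all genes fitted in 143B. In the order of falls it was the second of 11419 genes, between PLAT (log2 -4.71) and CRABP1 (log2 -4.29). In HOS, whose contrast is not the one named in the choice of genes, DDIT4 had 77.21 and 77.38 FPKM in the libraries labelled sgNAT10 and 42.54 and 45.13 FPKM in NC. All sgNAT10 libraries lay above NC, with a log2 change of 0.80 (SE 0.088, adjusted p = 8.4e-07, limma, both libraries of a group in one direction). That rise is 0.62 above the median change of all genes in HOS, which was 0.19. DDIT4 remained called in HOS under all 18 alternative settings, with log2 changes between 0.58 and 1.01 and adjusted p up to 0.023. Counted apart from these, an added 2-fold threshold was passed by 0 of the HOS members. In bulk RNA, fewer expressing cells and less RNA per cell cannot be told apart. DDIT4 is a protein-coding gene of chromosome 10 (GRCh38, 72273920 to 72276036, plus strand) and shares exon bases with the antisense gene DDIT4-AS1, which neither table lists.

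**Figure D1:**
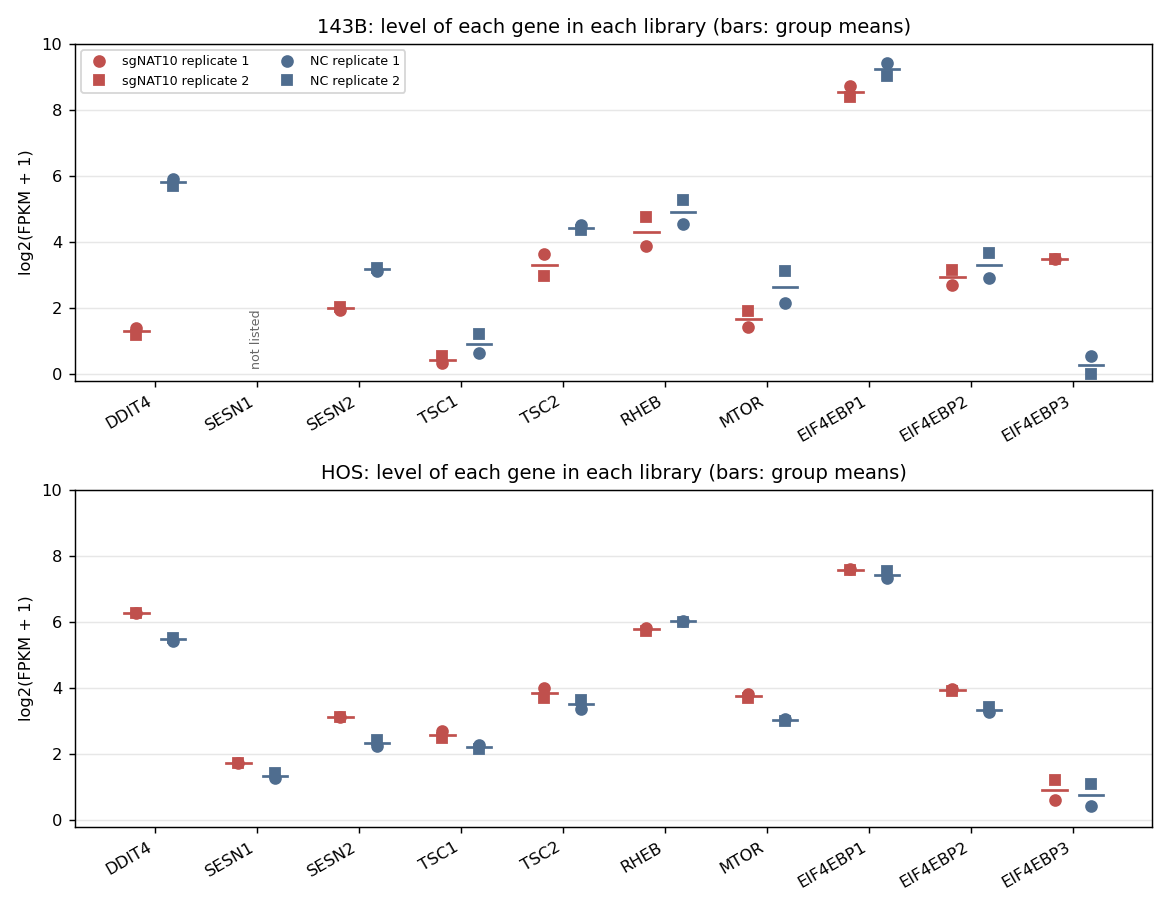
Level of each gene in each library, as log2(FPKM + 1), with sgNAT10 libraries in red and NC libraries in blue, circles for replicate 1, squares for replicate 2 and short bars for group means. In 143B (top) DDIT4 lies near the floor in sgNAT10 and EIF4EBP3 near the floor in NC. In HOS (bottom) the largest distance between group means is 0.80, for DDIT4. There the libraries labelled sgNAT10 lie above NC for 8 genes and below for 1, and the groups overlap for 1. Of all HOS genes tested, 53.9% lie above and 29.2% below in this way. EIF4EBP1 is the highest gene in both lines.

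The 250 bases before the annotated starts of DDIT4, SESN2 and EIF4EBP3 are shown because DDIT4 and SESN2 moved the same way in each line and EIF4EBP3 moved the opposite way to both in 143B. They are RefSeq promoters of GRCh38.p14, plus strand, at chr10:72273674-72273923, chr1:28259268-28259517 and chr5:140547412-140547661. Capitals mark matches to the letters searched for.
DDIT4: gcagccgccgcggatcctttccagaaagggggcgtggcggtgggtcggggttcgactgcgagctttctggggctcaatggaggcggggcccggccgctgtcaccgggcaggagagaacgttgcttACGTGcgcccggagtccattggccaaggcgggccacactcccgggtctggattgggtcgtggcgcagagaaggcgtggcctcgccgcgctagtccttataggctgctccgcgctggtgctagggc
SESN2: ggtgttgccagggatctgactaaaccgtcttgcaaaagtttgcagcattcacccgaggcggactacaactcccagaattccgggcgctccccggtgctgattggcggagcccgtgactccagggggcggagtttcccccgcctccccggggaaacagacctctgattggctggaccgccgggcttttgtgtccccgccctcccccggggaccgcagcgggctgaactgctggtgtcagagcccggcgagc
EIF4EBP3: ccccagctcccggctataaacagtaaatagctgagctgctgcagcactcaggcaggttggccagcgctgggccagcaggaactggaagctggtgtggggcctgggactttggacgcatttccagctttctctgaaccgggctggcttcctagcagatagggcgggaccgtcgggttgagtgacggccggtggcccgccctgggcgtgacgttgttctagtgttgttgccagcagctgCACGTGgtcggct

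On both strands, 4 motifs were searched in windows of 250 bases before to 50 after the start: the hypoxia response core ACGTG, the CEBP-ATF element TGATGNAA, the forkhead motif GTAAACA and the E-box CACGTG, which contains the core. The core stood in 21.4% of 35116 promoters, the CEBP-ATF element in 3.62%, the forkhead motif in 3.42% and the E-box in 7.26%. DDIT4 held 1 core, whose first base lies at -125. EIF4EBP3 held 1 E-box at -13, which accounts for its 2 core matches on opposite strands. SESN2 held none of the 4 motifs in this window. Of the 9 genes with an entry, TSC2 had an E-box at -114 and a CEBP-ATF match at -110 in 1 of its 2 promoters, RHEB had a core at -81, and SESN1, TSC1, MTOR and EIF4EBP2 had no match. The promoters of DDIT4 and SESN2 thus share no match to these letters. Their direction is not particular to them. As deposited, TSC1, TSC2, MTOR and EIF4EBP1 also lay below NC in 143B and above NC in HOS, as did 29.3% of 10655 genes.

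SESN2 followed DDIT4 in direction in each line, over a smaller range. This stress-induced sestrin had, in 143B, 2.85 and 3.11 FPKM in sgNAT10 and 7.79 and 8.31 FPKM in NC, with no overlap, and its log2 change was -1.19 (SE 0.33). HOS cells had 7.85 and 7.71 FPKM in the libraries labelled sgNAT10 and 3.81 and 4.42 FPKM in NC. It rose there by a log2 change of 0.78 (SE 0.112, adjusted p = 1.3e-05, limma), and the call held under all 18 alternatives (log2 0.39 to 0.96, adjusted p up to 0.027). After correction for transcript length and GC content, SESN2 kept its signs with less distance, at -0.39 in 143B and 0.39 in HOS. SESN2 occupies 28259527 to 28282491 of chromosome 1, plus strand.

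SESN1, another sestrin, could be read in HOS alone. Its gene occupies 108986437 to 109094819 of chromosome 6, minus strand. It had 2.35 and 2.36 FPKM in the libraries labelled sgNAT10 and 1.43 and 1.71 FPKM in NC, and rose (log2 0.39, SE 0.114, adjusted p = 0.0063, limma). The call was lost under quantile normalization (log2 0.13, adjusted p = 0.32) and median-ratio scaling (log2 0.24, adjusted p = 0.078). SESN3, the remaining sestrin gene, had 0.56 and 0.63 FPKM in the HOS libraries labelled sgNAT10 and 0.31 and 0.26 FPKM in NC, under the filter. SESN2 made up 73.0% and 72.1% of the summed sestrin FPKM in the HOS libraries labelled sgNAT10 and 68.6% and 69.2% in NC (exact permutation p = 0.33, two-sided, the smallest that 2 libraries against 2 allow). The mean DDIT4 to SESN2 ratio in HOS was 9.94 ± 0.142 in the libraries labelled sgNAT10 and 10.7 ± 0.675 in NC (SD, n = 2 each), lower without overlap (exact permutation p = 0.33, the smallest possible). In 143B that ratio was 0.579 and 0.418 in sgNAT10 and 7.54 and 6.20 in NC.

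TSC1 and TSC2, the partners of the complex that inactivates RHEB, were lower in 143B and higher in HOS as deposited. TSC2 in 143B had 11.36 and 6.79 FPKM in sgNAT10 and 21.8 and 19.67 FPKM in NC, a log2 change of -1.15 (SE 0.328). After length and GC correction the 143B change was -0.36. HOS cells had 15.16 and 12.05 FPKM in the libraries labelled sgNAT10 and 9.44 and 11.56 FPKM in NC. There its log2 change was 0.34 (SE 0.123, adjusted p = 0.020, limma), but after length and GC correction it was -0.28 with adjusted p = 0.014, a call in the other direction. The HOS call was also lost without sgNAT10 replicate 1 (adjusted p = 0.40) and without NC replicate 1 (adjusted p = 0.13). TSC2, at 2047465 to 2089487 of chromosome 16 on the plus strand, shares exon bases on the opposite strand with NTHL1 and PKD1, and the labels do not say whether strand was kept. NTHL1 moved opposite to TSC2, with log2 1.32 in 143B (adjusted p = 0.0057) and -0.39 in HOS (adjusted p = 0.0061). PKD1 moved with it, with log2 -1.53 in 143B (adjusted p = 0.0083) and 0.60 in HOS (adjusted p = 0.00011), a value that turned to -0.0864 after length and GC correction. Their part in the TSC2 values was not tested.

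TSC1 (chromosome 9, 132891348 to 132946874, minus strand) was near the floor in 143B, at 0.27 and 0.46 FPKM in sgNAT10 and 0.57 and 1.31 FPKM in NC, and did not pass the filter of 1 FPKM in at least 2 libraries. In HOS it had 5.48 and 4.68 FPKM in the libraries labelled sgNAT10 and 3.87 and 3.47 FPKM in NC (log2 0.38, SE 0.116, adjusted p = 0.0080, limma). After length and GC correction its value was -0.17 (adjusted p = 0.10), and without sgNAT10 replicate 1 the call was lost (adjusted p = 0.17). The TSC2 to TSC1 ratio overlapped between groups in each line. It was 42.1 and 14.8 in 143B sgNAT10 and 38.2 and 15.0 in 143B NC, following the replicate number more closely than the label. In HOS the ratio was 2.77 and 2.57 in the libraries labelled sgNAT10 and 2.44 and 3.33 in NC.

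RHEB, the activator (chromosome 7, 151466012 to 151520120, minus strand), was the member that fell in HOS. It had 55.55 and 52.84 FPKM in the HOS libraries labelled sgNAT10 and 64.92 and 63.32 FPKM in NC, a log2 change of -0.24 (SE 0.088, adjusted p = 0.023, limma). Rescaled to a common sum the change was -0.03 (adjusted p = 0.79), and the call was lost without either sgNAT10 library (adjusted p = 0.15 and 0.29). In 143B RHEB had 13.83 and 25.93 FPKM in sgNAT10 and 22.52 and 37.72 FPKM in NC, so the groups overlapped (log2 -0.59, SE 0.371).

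MTOR, the kinase, had 1.68 and 2.79 FPKM in 143B sgNAT10 and 3.45 and 7.73 FPKM in 143B NC (log2 -0.97, SE 0.409). In HOS it had 13.25 and 11.95 FPKM in the libraries labelled sgNAT10 and 7.35 and 7.05 FPKM in NC. It rose there (log2 0.73, SE 0.106, adjusted p = 1.6e-05, limma), and leaving out any library kept the call (log2 0.66 to 0.80). The longest MTOR transcript has 8677 bases, and after length and GC correction its HOS change was 0.09 with adjusted p = 0.28. MTOR lies on chromosome 1 on the minus strand, from 11106535 to 11262507.

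**Figure D2:**
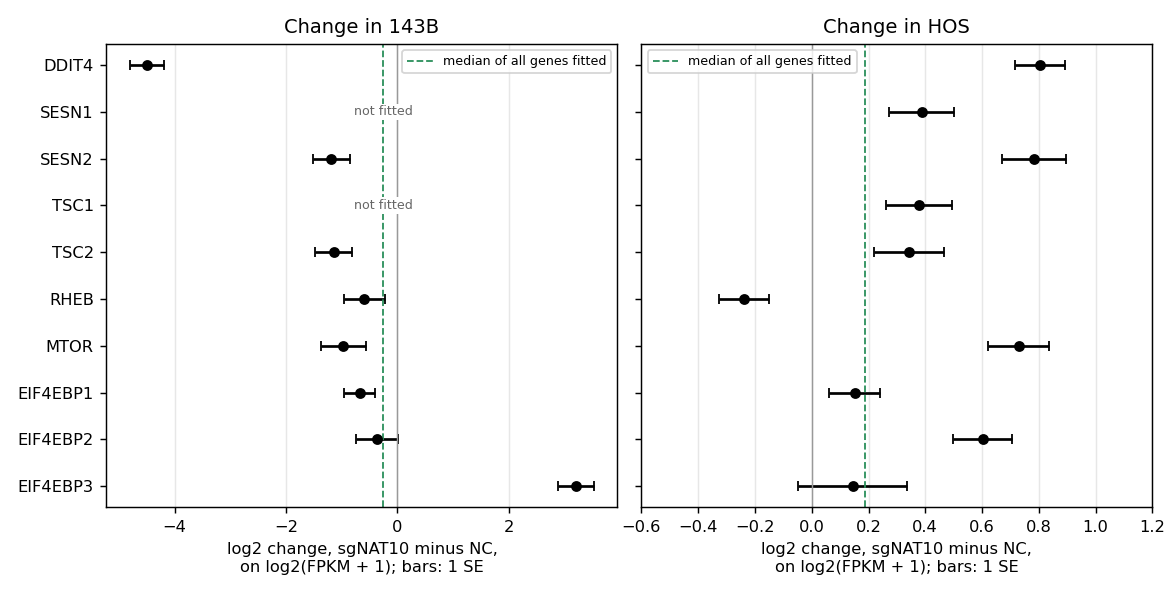
Change of each gene in 143B (left) and HOS (right), as sgNAT10 minus NC on the log2(FPKM + 1) scale, with points for the fitted change, bars for 1 standard error and a dashed line for the median of all genes fitted. The horizontal scales differ: in 143B the values run from -4.50 for DDIT4 to 3.22 for EIF4EBP3, in HOS from -0.24 for RHEB to 0.80 for DDIT4, and SESN1 and TSC1 were not fitted in 143B.

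EIF4EBP1 was by far the most abundant 4E-binding protein transcript in both lines. In 143B it had 419.13 and 334.95 FPKM in sgNAT10 and 690.35 and 521.2 FPKM in NC, without overlap (log2 -0.68, SE 0.277). In HOS it had 193.48 and 191.84 FPKM in the libraries labelled sgNAT10 and 159.67 and 188.1 FPKM in NC, a log2 change of 0.15 (SE 0.09) that did not pass the test (adjusted p = 0.14, limma). That value was -0.077 under median-ratio scaling and 0.32 with adjusted p = 0.0027 under quantile normalization. EIF4EBP1 occupies 38030341 to 38060365 of chromosome 8, plus strand.

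EIF4EBP2 rose in HOS, where it had 14.76 and 14.18 FPKM in the libraries labelled sgNAT10 and 8.70 and 9.71 FPKM in NC (log2 0.60, SE 0.105, adjusted p = 8.7e-05, limma). The call was lost when the spread was shared by all 8 libraries (adjusted p = 0.14) and held under the other 17 alternatives, with 0.31 as the lowest value, after length and GC correction. In 143B it had 5.56 and 7.91 FPKM in sgNAT10 and 6.57 and 11.74 FPKM in NC, so the groups overlapped (log2 -0.36, SE 0.381). EIF4EBP2 occupies 70404379 to 70428618 of chromosome 10, plus strand.

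EIF4EBP3 ran opposite to DDIT4 in 143B. It had 10.31 and 10.16 FPKM in sgNAT10, whereas the NC libraries had 0.46 FPKM and a listing at 0. It passed the filter through the sgNAT10 libraries alone. Its log2 change was 3.22 (SE 0.322) with a pseudocount of 1, 5.45 with 0.1 and 1.54 with 5, so the size rests on the pseudocount while the order of libraries does not. In the order of rises it was the seventh of 11419 genes, between PRKAR2A (log2 3.32) and ZCRB1 (log2 3.11). In HOS it had 0.54 and 1.34 FPKM in the libraries labelled sgNAT10 and 0.36 and 1.17 FPKM in NC. The groups overlapped there, with a log2 change of 0.14 (SE 0.191, adjusted p = 0.51, limma).

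EIF4EBP3 occupies 140547666 to 140549578 of chromosome 5, plus strand, and shares exon bases with the same-strand readthrough gene ANKHD1-EIF4EBP3, which both tables list. Reads of the shared exons can be divided between the entries, so each value is uncertain. The readthrough had 1.14 and 1.06 FPKM in 143B sgNAT10 and 1.56 and 2.57 FPKM in 143B NC (log2 -0.53, adjusted p = 0.15). The sum of both entries was 11.5 and 11.2 FPKM in 143B sgNAT10 and 2.02 and 2.57 FPKM in 143B NC, again without overlap between the groups. In HOS the sum was 4.88 and 5.59 FPKM in the libraries labelled sgNAT10 and 3.34 and 2.80 FPKM in NC, without overlap (exact permutation p = 0.33, the smallest possible). There the readthrough entry rose (log2 0.71, SE 0.151, adjusted p = 0.00052, limma). ANKHD1, the upstream gene, was not called in 143B (log2 0.28, adjusted p = 0.61) or in HOS (log2 -0.04, adjusted p = 0.73).

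**Figure D3:**
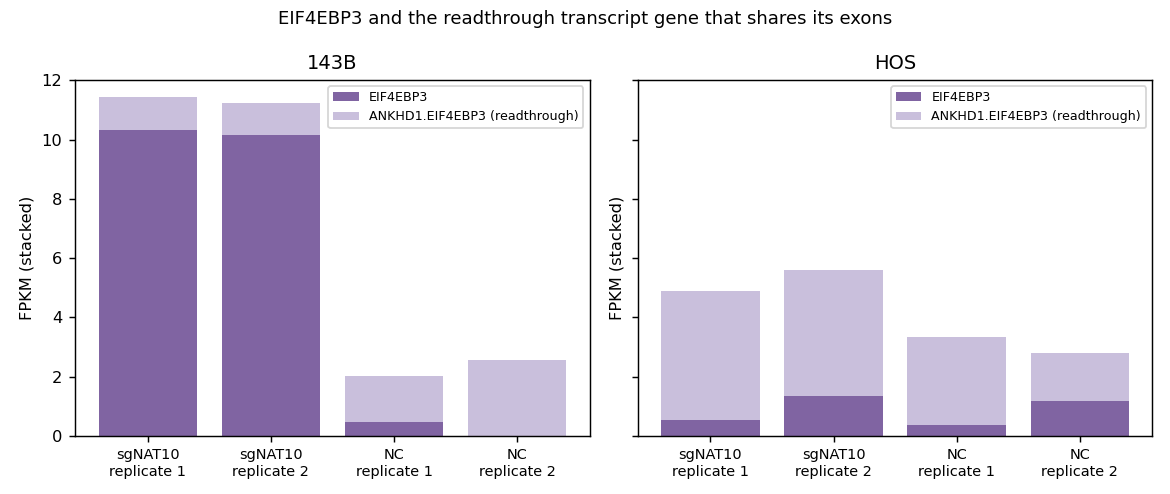
FPKM of EIF4EBP3 (dark) and of the readthrough ANKHD1.EIF4EBP3 (light), stacked for each library of 143B (left) and HOS (right), with sgNAT10 libraries left of NC libraries. In 143B EIF4EBP3 makes up a mean of 90.3% of the sum in sgNAT10 and 11.4% in NC, while in HOS the readthrough makes up most of the sum in all 4 libraries.

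Even at its highest, EIF4EBP3 was a small part of the 4E-binding protein RNA. It made up 2.37% and 2.88% of the summed FPKM of the 3 genes in 143B sgNAT10 and 0.066% and 0% in 143B NC. EIF4EBP1 made up 96.4% and 94.9% in 143B sgNAT10 and 99.0% and 97.8% in 143B NC, and 92.7% and 92.5% in the HOS libraries labelled sgNAT10 against 94.6% and 94.5% in HOS NC. EIF4EBP1 thus set most of the sum in every library. The EIF4EBP2 share in HOS was 7.07% and 6.84% in the libraries labelled sgNAT10 and 5.16% and 4.88% in NC (exact permutation p = 0.33, the smallest possible). The summed level of the 3 genes was 435 and 353 FPKM in 143B sgNAT10 and 697 and 533 FPKM in 143B NC. In HOS it was 209 and 207 FPKM in the libraries labelled sgNAT10 and 169 and 199 FPKM in NC. The sum followed EIF4EBP1, below NC in 143B and above it in HOS as deposited. EIF4E, the cap-binding factor that these proteins hold, had 4.79 and 7.17 FPKM in 143B sgNAT10 and 2.99 and 4.20 FPKM in 143B NC (log2 0.59, adjusted p = 0.22). In HOS, EIF4E fell to 9.26 and 9.63 FPKM in the libraries labelled sgNAT10, against 12.97 and 11.76 FPKM in NC (log2 -0.35, SE 0.105, adjusted p = 0.0065, limma). The ratio of summed 4E-binding protein FPKM to EIF4E FPKM was 90.8 and 49.2 in 143B sgNAT10 and 233 and 127 in 143B NC. In HOS it was 22.5 and 21.5 in the libraries labelled sgNAT10 and 13.0 and 16.9 in NC, so it lay lower in 143B sgNAT10 and higher in the HOS libraries labelled sgNAT10 without overlap in either line (exact permutation p = 0.33 in HOS, the smallest possible).

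Control levels by line are given side by side, with no test, since the tables were normalized separately and these levels entered the choice of genes. EIF4EBP1 averaged 606 ± 120 FPKM in 143B NC and 174 ± 20.1 FPKM in HOS NC (SD, n = 2 each), above 98.8% and 96.6% of listed genes. DDIT4 averaged 55.1 ± 5.13 FPKM in 143B NC and 43.8 ± 1.83 FPKM in HOS NC, above 86.8% and 84.9% of listed genes. RHEB averaged 30.1 ± 10.7 FPKM in 143B NC and 64.1 ± 1.13 FPKM in HOS NC. These 3 genes led in both controls, with DDIT4 above RHEB in 143B NC and below it in HOS NC. TSC2 came next in both, at 20.7 ± 1.51 FPKM in 143B NC and 10.5 ± 1.5 FPKM in HOS NC, its libraries overlapping those of EIF4EBP2 in HOS. In 143B NC, EIF4EBP2 overlapped SESN2 and MTOR, and in HOS NC SESN2 overlapped TSC1. TSC1 averaged 0.94 ± 0.523 FPKM in 143B NC and 3.67 ± 0.283 FPKM in HOS NC. EIF4EBP3 was the lowest listed member in both.

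Over the HOS members, 7 rose and 1 fell past the threshold of adjusted p 0.05, and EIF4EBP1 and EIF4EBP3 did not pass. All 10 were tested. In 8 members both libraries labelled sgNAT10 lay above NC and in 1 below, where 53.9% and 29.2% of all HOS genes did so. Against this stands a background of 68.5% of 11957 genes called in HOS, 45.5% higher and 23.0% lower, so the members' count is near what the whole table shows. The members' median change was 0.38, beside 0.19 over all genes, and 7 of 10 lay above that median. With the spread shared by all 8 libraries, DDIT4 and SESN2 were the members still called (8 tested), beside 1864 of 10655 genes. Under median-ratio scaling 5 members were called, beside 7800 of 11957 genes. In 143B the fit placed 1 member higher and 3 lower past the same threshold among 8 fitted, where 38.3% of 11419 genes were called (12.9% higher, 25.4% lower), a count that the choice of genes bears on and from which nothing is read. Likewise 1 listed member lay above NC without overlap in 143B and 6 below, beside 23.9% and 42.8% of all genes.

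**Figure D4:**
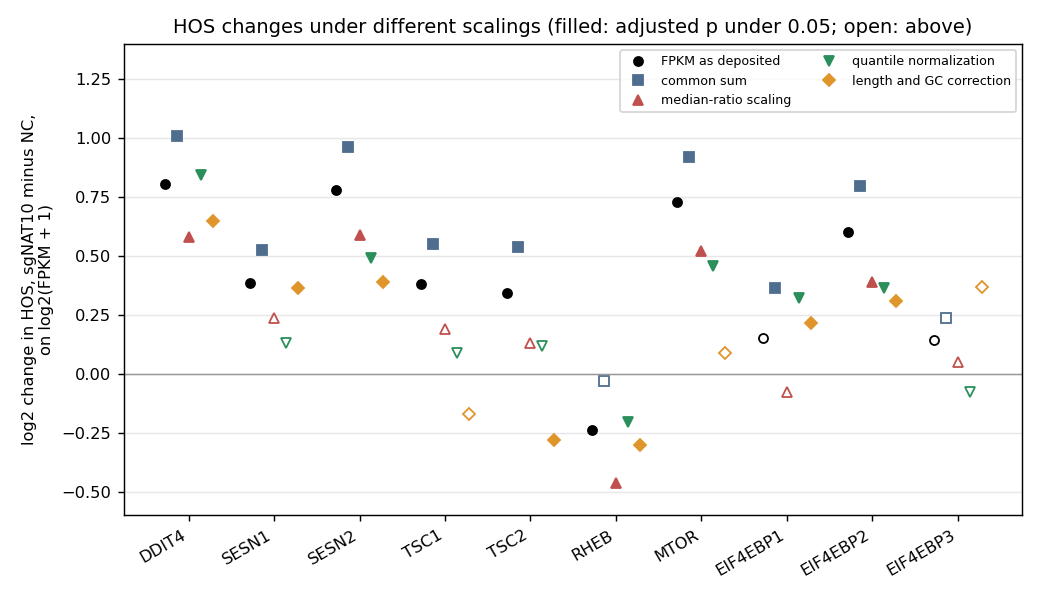
HOS changes of each gene, sgNAT10 minus NC on the log2(FPKM + 1) scale, with FPKM as deposited and under 4 other treatments of the libraries, filled where the adjusted p is under 0.05 and open where it is above. DDIT4, SESN2 and EIF4EBP2 stay above 0 and filled in all 5, TSC1 and TSC2 turn below 0 after length and GC correction, EIF4EBP1 lies below 0 under median-ratio scaling and EIF4EBP3 under quantile normalization.

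In FPKM as deposited, 6 of the 9 members listed in both tables had both sgNAT10 libraries below NC in 143B and both above NC in HOS: DDIT4, SESN2, TSC1, TSC2, MTOR and EIF4EBP1, of which TSC1, TSC2 and EIF4EBP1 changed sign in HOS under another scaling. Among genes tested in both lines this was so for 5 of the 8 members (TSC1 was not tested in 143B) and for 29.3% of all 10655 genes. For the opposite pattern the share of all genes was 8.74%. EIF4EBP2, RHEB and EIF4EBP3 overlapped between groups in at least 1 line.

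The 143B replicates carried a difference of their own. In all 9 listed members the second library stood on the same side of the first in sgNAT10 as in NC, as it did for 75.8% of all genes tested. Replicate 2 was higher in both groups for RHEB, MTOR, TSC1, EIF4EBP2 and SESN2, and lower for DDIT4, TSC2, EIF4EBP1 and EIF4EBP3. For MTOR the step was 0.50 in sgNAT10 and 0.97 in NC on the log2 scale, and for RHEB 0.86 and 0.72. DDIT4 moved by -0.20 and -0.19, small beside its change of -4.50. In HOS 6 of 10 members, and 42.2% of all genes, had replicates on the same side in both groups.

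The rest of the pathway was read from 7 lists. In 143B, 1 of 11 tested genes of the amino acid sensor arm rose and 3 fell in FPKM as deposited, but the counts were 6 and 2 after length and GC correction. Among them CASTOR1, the arginine sensor, fell to 0.465 ± 0.163 FPKM in sgNAT10, against 3.44 ± 0.071 FPKM in NC (SD, n = 2; log2 -1.60, adjusted p = 0.0024, limma). NPRL3, of GATOR1, fell by a log2 change of -0.96, whereas SEH1L, of GATOR2 and the nuclear pore, rose (log2 0.996, adjusted p = 0.049). Of 11 Rag and Ragulator genes 3 rose and 1 fell, and at a common sum 0 rose and 2 fell. RRAGC (log2 1.46) and RRAGA (log2 -1.53), which encode partners in the Rag heterodimer, went opposite ways, and the Ragulator subunit LAMTOR4 and the folliculin partner FNIP2 each rose (log2 1.03). Of 11 partners of the mTOR complexes 0 rose and 2 fell, PRR5L (log2 -1.59) and TTI2 (log2 -1.01), while 4 rose and 2 fell after length and GC correction and 0 rose and 4 fell at a common sum. Over all 143B genes 12.9% rose and 25.4% fell. Without sgNAT10 replicate 1 the rises and falls were 0 and 2 in the sensor arm, 1 and 1 among Rag and Ragulator genes and 0 and 0 among the complex partners, and without sgNAT10 replicate 2 they were 0 and 1, 0 and 1, and 0 and 0.

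Of 20 upstream inputs to TSC in 143B, 3 rose and 6 fell (1 and 7 at a common sum, 5 and 6 under quantile normalization). AKT2, a kinase that inactivates TSC2, fell to 11.2 ± 2.74 FPKM in sgNAT10, against 39.9 ± 1.88 FPKM in NC (SD, n = 2; log2 -1.77, adjusted p = 0.0029, limma), and PIK3R2, a regulatory subunit of PI3 kinase, fell too (log2 -1.61). Subunits of the energy sensor AMPK went both ways, with PRKAA2 at 1.22 and PRKAB1 at -1.24. In the cap-binding and S6 kinase arm 0 of 15 rose and 2 fell, EIF4H (log2 -1.15) and RPS6KB2 (log2 -0.87), while 2 rose and 5 fell after length and GC correction and 1 rose and 0 fell under median-ratio scaling. Of 10 mTORC1 substrates outside translation 2 rose and 4 fell (0 and 5 at a common sum). They include the adaptor GRB10 (log2 -1.84), the autophagy kinase ULK1 (log2 -1.63) and the lysosomal regulator TFEB (log2 -1.40), while RB1CC1, a partner of ULK1, rose (log2 1.23). Without sgNAT10 replicate 1 the rises and falls were 1 and 2 among the inputs, 0 and 0 in the cap-binding arm and 0 and 2 among the substrates, and without sgNAT10 replicate 2 they were 0 and 2, 0 and 2, and 0 and 1. List medians ran from -0.63 for the transcription factors to 0.073 for the Rag genes, beside -0.25 for all genes. In 143B the medians of the cap-binding and transcription factor lists kept their sign under the 4 scalings, and those of the other 5 lists turned under at least 1 of them. The 143B genes named from the lists kept their sign, but NPRL3 and RPS6KB2 each came as near 0 as -0.133.

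Over all HOS genes tested, 45.5% rose and 23.0% fell, the shares to set beside each HOS count below. In HOS 14 of 21 inputs to TSC rose and 1 fell, with a median of 0.40 beside 0.19 for all genes. The counts for the inputs were 8 and 2 under median-ratio scaling, 11 and 5 after length and GC correction and 3 and 0 with the spread shared by all 8 libraries. The insulin receptor substrate IRS2 rose to 8.47 ± 0.325 FPKM in the libraries labelled sgNAT10, against 2.54 ± 0.064 FPKM in NC (SD, n = 2; log2 1.42, adjusted p = 2.5e-08, limma). IRS1 (log2 0.90), PIK3CB (log2 0.96) and PDPK1 (log2 0.80) rose with it. Of 10 mTORC1 substrates outside translation 6 rose and 0 fell, with a median of 0.59, and 4 rose and 2 fell after length and GC correction. Among them were the lipid phosphatase LPIN1 (log2 1.23), GRB10 (log2 0.98), ATG13 (log2 0.78) and TFE3 (log2 0.78). In the sensor arm 7 of 14 rose and 2 fell, but under median-ratio scaling 2 rose and 4 fell, and the counts were 3 and 4 after length and GC correction, 3 and 0 without sgNAT10 replicate 1 and 0 and 0 with the shared spread. WDR24 (log2 0.64), NPRL3 (log2 0.49), SEC13 (log2 0.36) and CASTOR1 (log2 0.35) changed most. Of 13 Rag and Ragulator genes 5 rose and 5 fell (2 and 6 under median-ratio scaling, 4 and 2 without sgNAT10 replicate 1, 0 and 0 with the shared spread), with FLCN at 0.64, RRAGC at 0.55, LAMTOR2 at -0.48 and SLC38A9 at -0.46. Of 11 partners of the mTOR complexes 5 rose and 2 fell (1 and 2 after length and GC correction, 3 and 2 without sgNAT10 replicate 1, 1 and 0 with the shared spread), with PRR5L at 1.08, RPTOR, the defining subunit of mTORC1, at 0.68, TELO2 at 0.51 and MAPKAP1 at -0.47. In the cap-binding and S6 kinase arm 5 of 15 rose and 4 fell (5 and 7 under median-ratio scaling and likewise after length and GC correction, 5 and 2 without sgNAT10 replicate 1, 4 and 0 with the shared spread), with the kinase EEF2K at 0.99, LARP1 at 0.80, EIF4G1 at 0.65 and EIF4H at 0.63. The HOS genes named from these lists kept their sign under the 4 scalings, but RPTOR and EIF4G1 came as low as 0.0584 and 0.0692. CASTOR1, NPRL3, PRR5L, GRB10 and EIF4H were thus lower in 143B sgNAT10 and higher in the HOS libraries labelled sgNAT10, whereas RRAGC was higher in both. The difference between lines was not tested, and 29.3% of 10655 genes lay below NC in 143B and above NC in HOS without overlap.

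Transcription factors known to act on the brake or 4E-binding protein genes went both ways. ATF4, the stress factor upstream of DDIT4 and SESN2, fell in 143B (log2 -1.52, adjusted p = 0.0027, limma) and in HOS (log2 -0.25, adjusted p = 0.0086, limma). In HOS its log2 change turned to 0.0184 under quantile normalization. The HOS call was also lost at a common sum and with the spread shared by all 8 libraries, where 0 genes of the list were called lower. FOXO3 rose in both lines, to 12.7 ± 0.354 FPKM in 143B sgNAT10, against 2.03 ± 1.06 FPKM in NC (SD, n = 2; log2 2.22, adjusted p = 0.0032), and by 1.16 in HOS (adjusted p = 1.5e-07). FOXO1 rose in HOS (log2 0.67). In all, 1 of 6 tested rose and 2 fell in 143B, and 3 of 7 rose and 1 fell in HOS. The HOS counts were 3 and 3 under median-ratio scaling, 4 and 0 at a common sum and 2 and 0 with the shared spread. Over all genes 12.9% rose and 25.4% fell in 143B, and 45.5% rose and 23.0% fell in HOS.

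The genes nearest to DDIT4 over the 8 libraries, by root mean square difference of log2(FPKM + 1) after centring each line on its NC mean, were PLAT (0.213), HOXB8 (0.292), CRABP1 (0.298), BHLHE40 (0.399) and LPCAT4 (0.457), out of 10647 compared. SESN2, the nearest of the other members, lay at 1.66. BHLHE40 had 0.33 and 1.08 FPKM in 143B sgNAT10 and 20.43 and 32.39 FPKM in 143B NC, and 21.77 and 21.52 FPKM in the HOS libraries labelled sgNAT10 and 10.38 and 10.28 FPKM in HOS NC. Nearest to EIF4EBP3 were HTD2 (0.292), NEGR1 (0.319), LOC112267959 (0.330), NRG4 (0.367) and LEPR (0.369). LEPR had 19.81 and 20.55 FPKM in 143B sgNAT10 and 1.57 and 2.04 FPKM in 143B NC. In HOS LEPR had 21.98 and 21.67 FPKM in the libraries labelled sgNAT10 and 21.49 and 18.22 FPKM in NC. These distances are a description.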

How the data were processed

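The authors deposited FPKM values in 1 table per cell line. Bowtie2, RSEM and DESeq2, and the build GRCh38, are named in the submitters' processing notes, which assign them no role; the annotation version is not stated there. Low values showed no steps from which whole reads could be recovered. A gene was tested where 2 or more of a line's 4 libraries reached 1 FPKM, on log2(FPKM + 1) with limma 3.58.1 in R 4.3.3 (two-sided, with an intensity trend; Benjamini-Hochberg adjustment over all genes tested, threshold 0.05), each line alone. This scale understates changes of low genes. No count model was applied to FPKM. Single values were compared with exact permutation tests. Members, lists, tests and alternatives were chosen with earlier results of these data known. The genes named are the 10 members, genes sharing their exons, up to 4 called genes per list and line by size of change, and the 5 nearest profiles of DDIT4 and EIF4EBP3. EIF4E and SESN3 were named for the ratios. Some genes that the rule names are not reported here. Gene positions, lengths and GC contents came from GENCODE 29 (98.4% of 143B and 98.5% of HOS genes matched by name), using the longest transcript. Promoters came from RefSeq.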

Additional observations from a re-analysis of the deposited data

Results flagged for a closer look

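For 6 members in FPKM as deposited, both sgNAT10 libraries lay below NC in 143B and above NC in HOS. The difference between the lines was not tested, since the 143B values entered the choice of genes. As deposited, the change in 143B minus the change in HOS, on the log2(FPKM + 1) scale, was -5.31 for DDIT4, -1.97 for SESN2 and -1.70 for MTOR. It was -1.49 for TSC2, -0.863 for TSC1 and -0.829 for EIF4EBP1. After length and GC correction, SESN2 changed by -0.386 in 143B and 0.388 in HOS, and MTOR by -0.506 and 0.0881. TSC2 was then lower in both lines, at -0.364 and -0.28. TSC1, not fitted in 143B, was at -0.171 in HOS. DDIT4 (-3.95 in 143B) and EIF4EBP1 (-0.313 in 143B) stayed lower in 143B and higher in HOS. Among all 10655 genes tested in both lines, which do not include TSC1, 29.3% lay below NC in 143B and above NC in HOS without overlap. Of the 8 members in that set, 5 did so. In FPKM as deposited, median changes of all genes also lay on opposite sides, at -0.25 in 143B and 0.19 in HOS. They depend on the scaling, at -0.527 and 0.37 at a common sum and -0.017 and -0.00794 under median-ratio scaling. Under quantile normalization they were -0.0103 and 0.017, and after length and GC correction -0.043 and -0.00686.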

How the results depend on the processing

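In HOS, 8 members passed the threshold. The count was 5 under median-ratio scaling, 2 with the spread shared by all 8 libraries and 0 with an added 2-fold threshold, which 688 of the 8195 HOS genes passed. Median-ratio scaling called 7800 of 11957 HOS genes. The shared spread, over fewer genes, called 1864 of 10655. Otherwise the cause was not tested. Changes turned for TSC1 (-0.171) and TSC2 (-0.28) after length and GC correction, with or without the replicate block, for EIF4EBP1 (-0.077) under median-ratio scaling and for EIF4EBP3 (-0.0776) under quantile normalization. Leaving out 1 library moved EIF4EBP3 in HOS between -0.193 and 0.481, with a call without sgNAT10 replicate 1 (adjusted p = 0.0056). It was also called, at 0.367, with the replicate block and length and GC correction together (adjusted p = 0.017, limma). EIF4EBP1 in HOS, not called as deposited, was called higher at a common sum, under quantile normalization and after length and GC correction with or without the block. DDIT4 and SESN2 in HOS kept direction and call under all 18 alternatives apart from the 2-fold threshold, which neither passed. In 143B, 4370 genes passed, 1995 to 5067 leaving out 1 library, 7652 with the replicate block and 6934 with the block and length and GC correction. Of the 4370, 1473 were higher and 2897 lower, against 896 and 3736 at a common sum, 2361 and 2541 under median-ratio scaling, 2797 and 2847 under quantile normalization and 2991 and 3084 after length and GC correction. In HOS, 5444 were higher and 2751 lower, against 7075 and 1703, 3762 and 4038, 3890 and 3806, and 3780 and 3960 under those settings in that order. Same-numbered libraries deviated together in 143B (r = 0.605 over genes) and not in HOS (r = -0.106), and as the labels give no pairing, the block stays an alternative. With it, the 143B lists had 3 higher and 4 lower in the sensor arm, 4 and 3 among Rag and Ragulator genes, 1 and 5 among the complex partners and 2 and 7 in the cap-binding arm. In HOS, 7 members were called under the block, beside 7881 of 11957 genes, RHEB being lost (adjusted p = 0.069, limma). A crossed pairing in HOS, chosen after seeing the data, called 8458 genes and 8 members. Depth is unknown, so no counting limit can be set for members near 0, such as EIF4EBP3 in 143B NC.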
